A study of Mus musculus with 6 samples.

Results

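The 10 genes described here encode activating and repressing transcription factors that govern the passage of a cell from growth arrest into S phase and mitosis: E2f1 to E2f8, Foxm1 and Mybl2. They were taken by gene symbol from a read count table of 24421 genes. All 10 were found and all 10 passed the filter on low counts, as did 14417 genes in all. The libraries came from adult neural stem cells of the subventricular zone, the lining of the lateral ventricles where mice make neurons throughout life. The cells were wild type, from C57BL/6 mice at postnatal day 60, grown as primary cultures in medium with EGF and FGF2, each at 20 ng/ml. They received PluriSIn#2 at 20 µM, described by the submitters as an inhibitor of topoisomerase IIA, or DMSO as the control, for 3 days, with a change of medium at 24 h. Each group had 3 libraries. In the treatment field of PluriSIn#2 replicates 2 and 3 the compound carries another number than in their titles, so the fold changes of the 10 genes and the counts of called genes and targets were also computed with replicate 1 as the only treated library.

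E2F factors bind DNA together with a DP partner and switch on genes of DNA replication. In resting cells the pocket proteins (the retinoblastoma protein and its relatives p107 and p130) hold E2Fs in an inactive or repressing state, and cyclin-dependent kinases release them. E2f1, E2f2 and E2f3 are the activators, E2f4 and E2f5 work mainly as repressors with pocket proteins, E2f6 represses without them, and E2f7 and E2f8 are atypical repressors that bind DNA without a DP partner. Mybl2 encodes B-Myb, which joins the MuvB protein complex in S phase, and Foxm1 encodes a forkhead factor that joins it afterwards to switch on mitotic genes. Several of these genes, among them E2f1, E2f2, E2f7, E2f8 and Mybl2, are themselves known targets of E2F, and they are markers of dividing progenitors in the subventricular zone.

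Library totals ran from 16670962 to 19241869 counts, so that 1 read was worth between 0.0533 and 0.0586 CPM (counts scaled to library size, with TMM factors between libraries). All 12 markers of neural stem cells that were looked up were measured, the most abundant being Vim at 2667 ± 30.5 CPM in DMSO and 3059 ± 30.2 CPM in PluriSIn#2 (mean ± SD, n = 3). Of these 12, 9 were called lower after treatment, against 40.9% of all genes tested. Among them were Nes (log2 fold change -1.44), Egfr (-1.31), Fabp7 (-1.23) and Sox2 (-0.58). The other 3 were called higher: Vim (0.20), Slc1a3 (0.48) and Gfap (2.84). Most tested markers of other cell types were higher after treatment, as were 41.7% of all genes tested. The summed level of 16 microglia and macrophage markers lay between 10.02 and 10.9 CPM in DMSO and between 203 and 210.2 CPM in PluriSIn#2, with 13 of 14 tested members called higher. Lyz2 was the most abundant of them after treatment (81.7 ± 1.77 CPM) and Cd68 in DMSO (5.42 ± 0.21 CPM), where Trem2 had no read. Of 10 fibroblast and mural cell markers 8 were higher and 1, Cspg4, which is also the most abundant and a gene of oligodendrocyte precursors, was lower (summed range 179.6 to 187 against 323.9 to 324.3 CPM). Of 7 tested endothelial markers 6 were higher (6.50 to 7.73 against 30.7 to 33.6 CPM summed over 8 genes), with Flt1 the most abundant in DMSO and Cdh5 after treatment. Of 6 tested ependymal markers 5 were higher (39.3 to 41.3 against 156 to 158 CPM summed over 8 genes, most of it Foxj1). No marker in these lists was at 0 in all 6 libraries, and their part in the results below was not tested. In bulk RNA, fewer cells that express a gene and less RNA of it per cell cannot be told apart. Nothing in the labels says that replicates were separate cultures, so the p-values measure the spread between these libraries, which may be technical.

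All 10 genes were lower in PluriSIn#2 than in DMSO. For each of them every treated library lay under every DMSO library, and each was called lower at an adjusted p under 0.05. Calls here and below come from edgeR's quasi-likelihood fit, with p-values adjusted over 14417 genes by the method of Benjamini and Hochberg. Among all genes tested, 40.9% were called lower and 82.6% in either direction, while 40.9% had all treated libraries below all DMSO libraries and 82.7% had groups that did not overlap in either direction. The sizes of the falls were very unequal, from 1.23-fold for E2f4 to 152-fold for E2f8. At least 2-fold falls were found for 7 of the 10 genes, against 11.7% of all genes tested, and at least 16-fold falls for 5 (E2f2, E2f7, E2f8, Foxm1 and Mybl2), against 1.26%. The median log2 fold change of the 10 genes was -3.83, and that of all genes tested was 0.01.

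**Figure D1:**
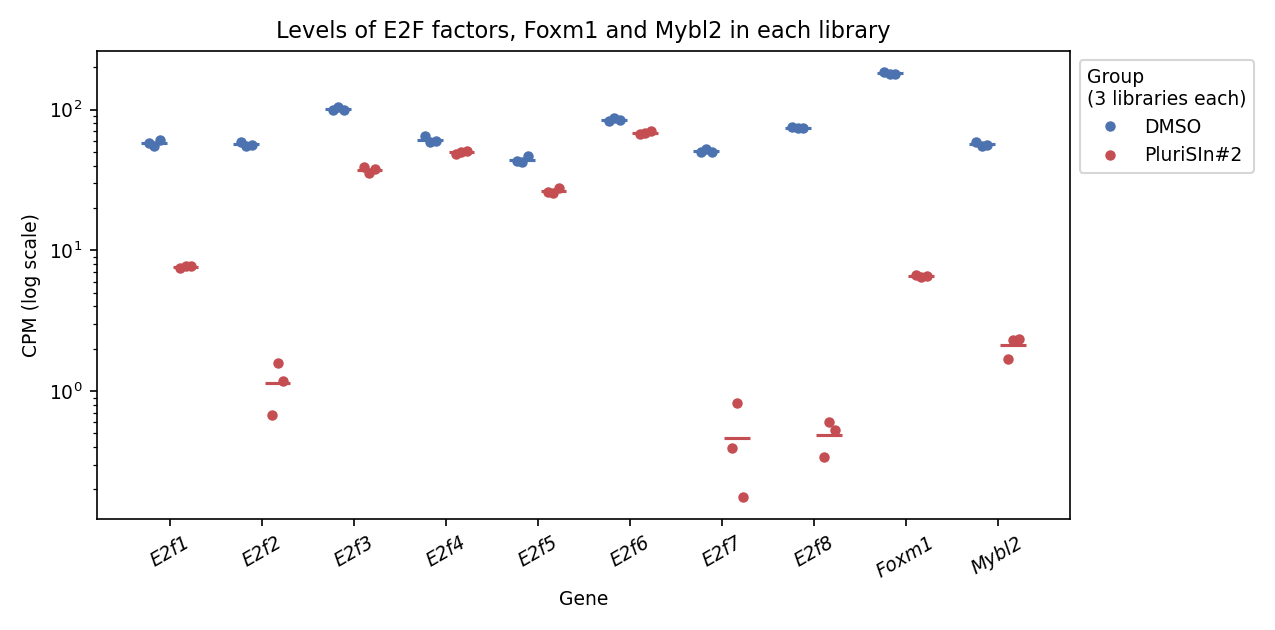
CPM of each gene (log axis) in the 3 DMSO libraries (blue) and the 3 PluriSIn#2 libraries (red). Points are single libraries and short lines are group means. The treated points lie below the DMSO points for all 10 genes, by the most for E2f7 and E2f8 and by the least for E2f4 and E2f6.

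The activator E2Fs fell to different depths. E2f1 occupies positions 154559407 to 154569892 of chromosome 2, minus strand, in GENCODE M21 on GRCm38 (mm10), which gives all gene positions here. Its 3 DMSO values were 58.2, 54.9 and 60.5 CPM, against 7.50, 7.78 and 7.73 CPM with PluriSIn#2. The treated libraries lay close together, and the mean was 7.54-fold lower (log2 fold change -2.91, SE 0.074, edgeR adjusted p = 1.17e-54). E2f2, which spans 23.7 kb of chromosome 4 from 136172394 to 136196057, stood at 58.6, 55.5 and 56.0 CPM in DMSO, close to E2f1, and at 0.677, 1.59 and 1.17 CPM in PluriSIn#2. Its treated libraries hold only 12, 29 and 20 reads, and its fall was 49.5-fold (log2 fold change -5.61, SE 0.11, edgeR adjusted p = 2.05e-62). With replicate 1 as the only treated library, the E2f2 log2 fold change was -6.37, or 83.0-fold. E2f3 encodes an activating form (E2f3a) and a shorter form (E2f3b), which counts per gene do not separate. It occupies positions 29906575 to 29986063 of chromosome 13, minus strand, and kept the most of the 3 activators, with 99.7, 104 and 100.1 CPM in DMSO and 39.0, 35.6 and 37.8 CPM in PluriSIn#2. This was a 2.70-fold fall (log2 fold change -1.43, SE 0.046, edgeR adjusted p = 1.01e-46).

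E2f4, E2f5 and E2f6 fell the least. E2f4, the main E2F of resting cells, on chromosome 8 from 105297663 to 105305370, stood at 64.4, 59.1 and 59.5 CPM in DMSO and at 48.2, 49.6 and 51.0 CPM in PluriSIn#2. The groups did not overlap, but the fall was only 1.23-fold (log2 fold change -0.30, SE 0.049, edgeR adjusted p = 5.03e-08), and 33.9% of all genes tested had a log2 fold change at or below it. E2f6, a partner of Polycomb-type repressor complexes on chromosome 12 from 16810963 to 16839742, moved by a similar amount, from 83.1, 87.4 and 83.8 CPM to 66.9, 67.8 and 70.9 CPM (1.24-fold lower, log2 fold change -0.31, SE 0.042, edgeR adjusted p = 3.05e-10). E2f5, the closest relative of E2f4, on chromosome 3 from 14578641 to 14606309, fell somewhat more, from 43.1, 42.4 and 46.9 CPM to 26.1, 25.7 and 27.7 CPM (1.67-fold lower, log2 fold change -0.74, SE 0.060, edgeR adjusted p = 8.78e-20). Its exons share 26 bases with 1810022K09Rik on the opposite strand, which was also lower (log2 fold change -0.65). The strand setting of the counting is unknown here, so reads of such overlaps cannot be assigned.

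The atypical repressors fell the most. E2f8, at positions 48866429 to 48881596 of chromosome 7, minus strand, stood at 75.8, 74.1 and 73.7 CPM in DMSO and at 0.338, 0.603 and 0.527 CPM in PluriSIn#2. The treated libraries hold 6, 11 and 9 reads against 1353, 1318 and 1383 in DMSO, and the fall was 152-fold (log2 fold change -7.23, SE 0.12, edgeR adjusted p = 1.05e-69). Its log2 fold change ranked 18 from the lowest among 14417 genes. E2f7, on chromosome 10 from 110745439 to 110787384, stood at 49.9, 52.4 and 49.7 CPM in DMSO and at 0.395, 0.822 and 0.176 CPM in PluriSIn#2, where the libraries hold 7, 15 and 3 reads. Its fall was 109-fold (log2 fold change -6.73, SE 0.14, edgeR adjusted p = 1.37e-61), and without PluriSIn#2 replicate 2, which holds 15 of the 25 treated reads, it was 172-fold (log2 fold change -7.43). E2f7 is known as a gene that p53 can induce. Cdkn1a, another p53 target, rose in the same libraries from 343 ± 4.81 to 1418 ± 2.67 CPM. A part of p53 in either change was not tested. The exons of E2f8 share 610 of their 5443 bases with Gm2788 on the opposite strand, a gene that was not tested. Those of E2f7 share 86 bases with 1700020G17Rik, also on the opposite strand and not tested.

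The mitotic regulators fell by nearly the same factor. Foxm1 lies on chromosome 6 from 128362967 to 128376146 and was the most abundant of the 10 genes in DMSO, at 185, 179 and 180.1 CPM. In PluriSIn#2 it stood at 6.71, 6.41 and 6.56 CPM, a 27.6-fold fall (log2 fold change -4.79, SE 0.057, edgeR adjusted p = 1.18e-80). Mybl2, on chromosome 2 from 163054687 to 163084688, stood at 58.4, 55.1 and 56.0 CPM in DMSO and at 1.69, 2.30 and 2.34 CPM in PluriSIn#2, a 26.8-fold fall (log2 fold change -4.74, SE 0.098, edgeR adjusted p = 1.45e-61). Exons of Foxm1 share 144 bases with Tex52 and 97 with Gm44596, both on its own strand and not tested. The start of Foxm1 lies 56 bases from that of Rhno1, a DNA damage response gene read in the opposite direction. Rhno1 stood at 47.4, 50.8 and 46.4 CPM in DMSO and at 18.8, 19.6 and 19.0 CPM in PluriSIn#2 (log2 fold change -1.33, SE 0.063, edgeR adjusted p = 1.64e-34). Its groups did not overlap, and its log2 fold change was nearer to 0 than that of Foxm1.

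Neighbours in the order of falls were also compared by the log2 ratio of their counts within each library. The pairs were formed by sorting the genes on these same fold changes, which fixes the direction of each difference, so the ratios are given as a description with no test. For Mybl2 against E2f1, the next gene in the order, the log2 ratio was -0.03 ± 0.067 in DMSO and -1.86 ± 0.23 in PluriSIn#2 (SD, n = 3). The treated and DMSO ratios overlapped for 3 of the 9 pairs. These were E2f8 against E2f7 (0.56 ± 0.051 in DMSO and 0.27 ± 1.02 in PluriSIn#2), Foxm1 against Mybl2 (1.68 ± 0.018 and 1.64 ± 0.29) and E2f6 against E2f4 (0.48 ± 0.10 and 0.47 ± 0.013). The spread in the treated libraries was wide wherever E2f7, E2f8 or E2f2 entered, also for E2f7 against E2f2 (-1.41 ± 0.996) and E2f2 against Foxm1 (-2.57 ± 0.64), whose ratios did not overlap those in DMSO.

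Levels of different genes were set side by side in FPKM (fragments scaled by transcript length and library size), computed per library by the authors. The lengths they used are unknown here, and the order between genes depends on them. For E2f6, GENCODE M21 lists 7 transcripts and 5663 exonic bases, against 3 and 2452 for E2f4. The SDs show the spread between libraries only. In DMSO the order of mean FPKM was Foxm1 (41.8 ± 0.85), E2f6 (32.5 ± 0.92), E2f4 (29.3 ± 1.48), E2f5 (24.2 ± 1.32), E2f1 (20.2 ± 0.96), E2f8 (19.3 ± 0.29), E2f3 (19.0 ± 0.42), Mybl2 (14.7 ± 0.43), E2f2 (11.2 ± 0.34) and E2f7 (8.86 ± 0.27). Libraries overlapped only between E2f1 and E2f8 and between E2f8 and E2f3 among neighbours in this order. In PluriSIn#2 the order was E2f6 (27.6 ± 0.83), E2f4 (24.99 ± 0.70), E2f5 (15.3 ± 0.52), E2f3 (7.38 ± 0.35), E2f1 (2.81 ± 0.052), Foxm1 (1.62 ± 0.038), Mybl2 (0.578 ± 0.10), E2f2 (0.237 ± 0.094), E2f8 (0.133 ± 0.037) and E2f7 (0.0851 ± 0.060), and neighbours overlapped between E2f2 and E2f8 and between E2f8 and E2f7. Foxm1 thus went from the highest of the 10 levels to the sixth.

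**Figure D2:**
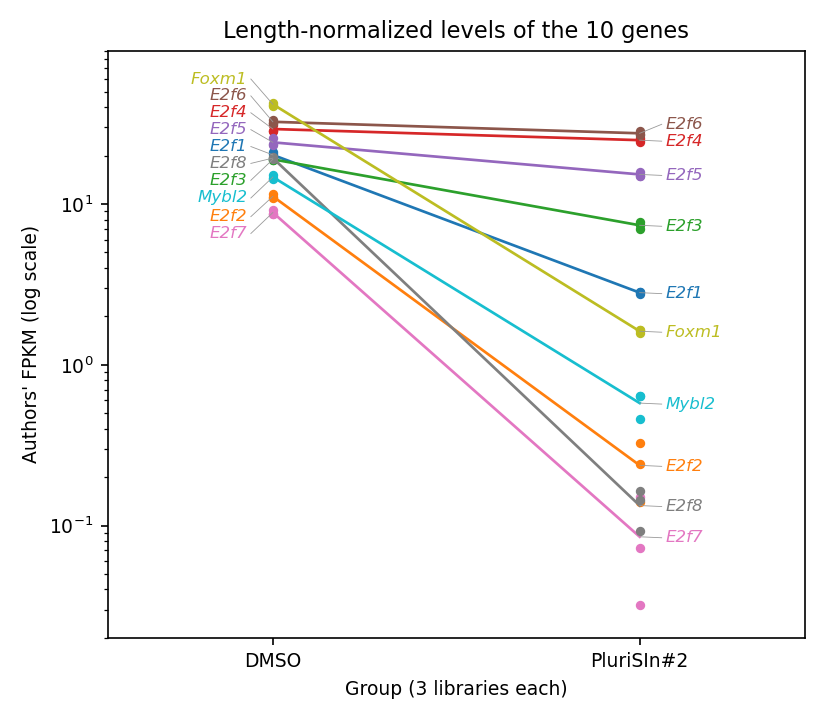
FPKM deposited by the authors for each gene (log axis) in DMSO (left) and PluriSIn#2 (right). Points are single libraries, lines join the group means, and thin grey lines lead to the gene names. The 10 genes lie between 8.68 and 42.7 FPKM in the DMSO libraries and spread over 0.0322 to 28.5 FPKM in the treated ones.

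The makeup of the E2F family shifted towards E2f4, E2f5 and E2f6. Summed over E2f1 to E2f8, FPKM was 166, 163 and 165 in the DMSO libraries and 77.1, 77.7 and 80.8 in the PluriSIn#2 libraries. The activators E2f1 to E2f3 made up 30.6% ± 0.23 of this sum in DMSO and 13.3% ± 0.39 in PluriSIn#2 (SD, n = 3). E2f4 to E2f6 made up 52.3% ± 0.062 and 86.4% ± 0.36, and E2f7 with E2f8 made up 17.1% ± 0.29 and 0.279% ± 0.11. E2f3 came to hold most of what was left of the activators, with 9.41% ± 0.51 of the family sum against 3.58% ± 0.084 for E2f1 and 0.301% ± 0.12 for E2f2 in PluriSIn#2. The ratio of activators to E2f4 to E2f6 was 0.585, 0.582 and 0.589 in the DMSO libraries and 0.160, 0.152 and 0.150 in the treated ones, with no overlap. These shares describe transcripts, and they follow from the falls given above. Their size also depends on the transcript lengths behind the FPKM, which are unknown here.

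**Figure D3:**
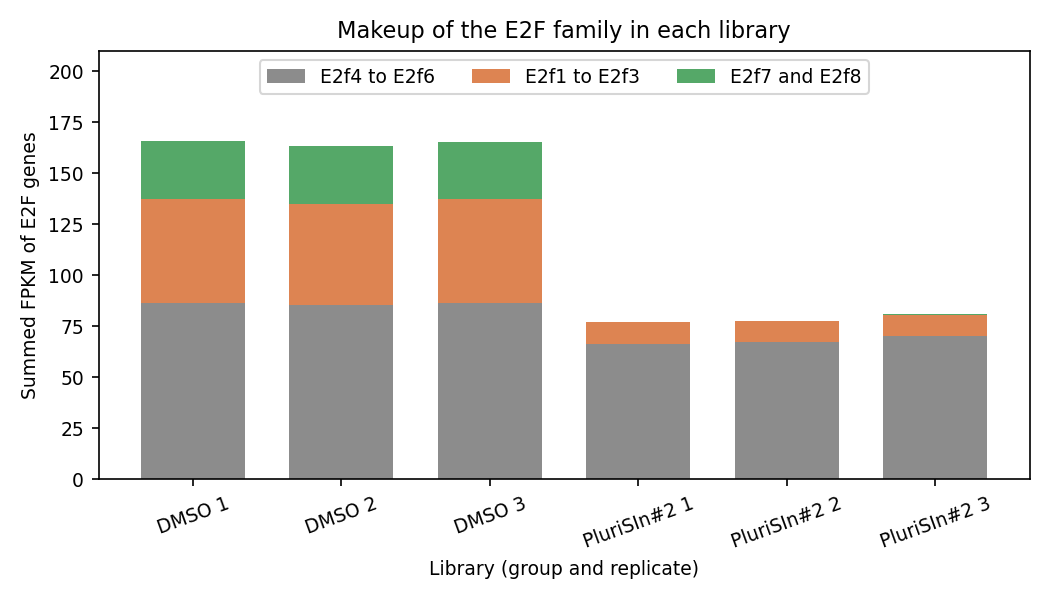
Summed FPKM of the E2F genes in each library, stacked by class: E2f4 to E2f6 (grey), E2f1 to E2f3 (orange), E2f7 and E2f8 (green). The grey part keeps most of its height after treatment (85.3 to 86.6 against 66.3 to 70.1), while the green part falls from between 27.8 and 28.4 to between 0.165 and 0.315.

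Sequence before the start of the genes is shown because words that E2F and the mitotic MuvB complexes are known to bind occur there in some of the 10 genes. These include E2f8, with a 152-fold fall, and E2f3, with a 2.70-fold fall. A link between the words and the sizes of the falls was not tested. Of the 10 genes, 7 had windows in the RefSeq promoter table (GRCm38.p6; 250 bases before to 50 after a start), with 9 windows in all. E2f4, E2f5 and Foxm1 are not shown. Words are placed by the RefSeq starts. That of E2f2 (136172274) lies before its GENCODE start (136172394), as does that of Mybl2 (163054635 against 163054687). The windows were searched on both strands for the E2F words TTTCCCGC, TTTCGCGC, TTTGCCGC and TTTGGCGC, for GGCGGGA, which can overlap an E2F word, for TTTGAA, a form of the cell cycle homology region (CHR) bound by MuvB, and for the CCAAT box. The 200 bases before 5 of the starts follow, 5′ to 3′ on the strand of the gene, with the words found in capitals. They lie at chr13:29986064-29986263 (E2f3, minus strand), chr2:163054435-163054634 (Mybl2, plus), chr7:48881597-48881796 (E2f8, minus), chr10:110745239-110745438 (E2f7, plus) and chr4:136172074-136172273 (E2f2, plus).
E2f3: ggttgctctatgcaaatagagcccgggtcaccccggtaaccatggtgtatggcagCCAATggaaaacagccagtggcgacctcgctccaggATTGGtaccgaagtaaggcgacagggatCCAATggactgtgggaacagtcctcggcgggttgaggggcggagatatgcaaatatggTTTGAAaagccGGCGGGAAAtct
Mybl2: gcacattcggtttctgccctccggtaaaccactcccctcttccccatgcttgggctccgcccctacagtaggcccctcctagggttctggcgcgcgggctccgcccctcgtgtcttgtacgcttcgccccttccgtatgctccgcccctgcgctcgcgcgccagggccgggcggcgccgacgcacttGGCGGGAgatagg
E2f8: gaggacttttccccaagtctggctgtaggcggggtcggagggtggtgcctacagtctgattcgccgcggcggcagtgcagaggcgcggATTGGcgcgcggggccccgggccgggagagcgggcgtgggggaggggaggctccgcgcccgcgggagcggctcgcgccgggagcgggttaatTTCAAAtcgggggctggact
E2f7: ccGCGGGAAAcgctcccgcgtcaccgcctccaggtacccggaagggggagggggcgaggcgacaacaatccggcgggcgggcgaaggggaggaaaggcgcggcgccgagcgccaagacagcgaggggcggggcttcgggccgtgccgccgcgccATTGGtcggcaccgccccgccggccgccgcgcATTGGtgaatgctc
E2f2: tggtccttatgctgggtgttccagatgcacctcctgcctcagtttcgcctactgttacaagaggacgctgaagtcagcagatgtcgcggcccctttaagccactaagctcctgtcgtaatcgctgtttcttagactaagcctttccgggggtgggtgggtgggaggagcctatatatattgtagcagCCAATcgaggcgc
E2f3, of whose 2 listed starts the outer one is shown, holds TTTGAA at -23 (counted from the start) and CCAAT boxes at -145, -109 and -81, then GGCGGGA at -12 and, overlapping it, GCGGGAAA (TTTCCCGC on the other strand) at -11. At the other listed start of E2f3, not shown, GGCGGGA lies at -78, read as TCCCGCC, and at base 19 after the start. Mybl2 holds GGCGGGA at -13. E2f8 holds TTCAAA, which is TTTGAA on the other strand, at -20, with a CCAAT box read as ATTGG at -112. E2f7 holds GCGGGAAA at -198 and CCAAT boxes, read as ATTGG, at -46 and -14. E2f2 holds a CCAAT box at -13, and its E2F word TTTGGCGC begins at base 40 after the RefSeq start, outside the stretch shown. At a second listed start of E2f2, not shown, TTTGAA lies at -31 and CCAAT boxes at -174, -133 and -53. The E2f6 window and the listed E2f1 window, which lies inside an annotated exon, hold none of these words.

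The shares of windows that hold each word are given here as a description, with no test between lists. An E2F word was found in 2.26% of all 32851 windows, in 3 of the 9 windows of the 10 genes, in 43.2% of 44 windows of G1/S targets and in 0 of 35 windows of G2/M targets. TTTGAA was in 17.9% of all windows, in 3 of the 9, in 13.6% of the G1/S windows and in 68.6% of the G2/M windows. A CCAAT box was in 37.4% of all windows, in 5 of the 9, in 61.4% of the G1/S windows and in 85.7% of the G2/M windows. GGCGGGA was in 11.3% of all windows, in 3 of the 9 (those of E2f3 and Mybl2), in 29.5% of the G1/S windows and in 28.6% of the G2/M windows. A word in a window is a description of the sequence, and no binding was measured here.

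Transcripts of proteins that act with E2F moved in both directions. Both DP partners, which E2f1 to E2f6 need to bind DNA, were lower: Tfdp1 stood at 221, 232 and 236 CPM in DMSO and at 81.1, 78.1 and 78.0 CPM in PluriSIn#2 (log2 fold change -1.54, SE 0.034), and Tfdp2 fell by 0.48 on the log2 scale. Of the 3 pocket proteins, Rbl1 (p107), itself a known E2F target, went from 93.0 ± 2.52 to 8.45 ± 0.82 CPM (log2 fold change -3.46, SE 0.065). Rb1 (the retinoblastoma protein) rose from 78.1 ± 1.64 to 113 ± 1.58 CPM (0.53, SE 0.038) and Rbl2 (p130), the pocket protein of resting cells, from 51.0 ± 0.87 to 67.5 ± 3.46 CPM (0.40, SE 0.047). In the MuvB core, which joins p130 and E2f4 in resting cells and B-Myb and FoxM1 in dividing ones, Lin9 (-2.01), Lin54 (-1.82) and Rbbp4 (-0.70) were lower, Lin52 was higher (0.88), and Lin37 was not called (15.9 ± 1.49 and 14.3 ± 0.92 CPM).

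Among relatives of Mybl2 and Foxm1, Myb fell from 10.5 ± 1.46 to 1.14 ± 0.41 CPM (log2 fold change -3.21) and Mybl1 fell less (-0.62). The FoxO factors, forkhead proteins active in resting cells, divided: Foxo3 rose from 49.0 ± 1.22 to 119 ± 3.31 CPM (1.28) and Foxo1 from 27.2 ± 1.01 to 49.8 ± 1.55 CPM (0.87), while Foxo6 (-1.05) and Foxo4 (-0.19) fell. Of 8 cyclins and kinases that phosphorylate pocket proteins, 7 were called lower, against 40.9% of all genes tested. Ccne2 (-2.83), Ccne1 (-2.72), Cdk6 (-2.36), Cdk2 (-2.21) and Cdk4 (-1.58) lay well below Ccnd1 (-0.48) and Ccnd3 (-0.15). Ccnd2, the exception, was higher at 2157 ± 14.9 against 1898 ± 17.5 CPM (0.18). Of 7 genes for inhibitors of these kinases, Cdkn1a (2.05), Cdkn2b (0.60) and Cdkn1c (0.26) rose and Cdkn2c (-3.28), Cdkn2a (-2.65), Cdkn2d (-1.34) and Cdkn1b (-0.73) fell. Counts per gene do not separate different products of one gene, such as those of Cdkn2a. The call for Cdkn1c was near the threshold, at 7.21 ± 0.54 CPM in DMSO and 8.63 ± 0.38 CPM in PluriSIn#2 (edgeR adjusted p = 0.039). With library totals in place of TMM factors, log2 fold changes were higher by a median of 0.07. Of all genes tested 5386 were then called lower, against 5900. Such a shift brings small falls, like that of Ccnd3 (SE 0.044), nearer to no change. Calls of the genes in this paragraph under that scaling are not given here.

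All 9 genes for kinases and degradation factors that act on E2F, B-Myb or FoxM1 proteins were called lower, against 40.9% of all genes tested. Melk (-7.15), Ccna2 (-6.88), Plk1 (-6.26) and Cdk1 (-6.03), kinase or cyclin genes of late cell cycle phases, fell the most. Cdc20 (-5.58), Chek1 (-4.03), Ccnf (-4.03) and Skp2 (-3.01) followed. Fzr1, which encodes the anaphase-promoting complex activator Cdh1, fell the least, from 121 ± 2.45 to 70.7 ± 2.81 CPM (-0.78).

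Target genes of the factors were lower as well. Both target lists were chosen with earlier results of these data known, so their counts are given as a description. All 48 G1/S targets of E2F were called lower, against 40.9% of all genes tested. At least 2-fold falls were found for 47 of them, against 11.7% of all genes tested. Their median log2 fold change was -3.49, with a range from -5.87 to -0.38. The most abundant were Dnmt1, the maintenance DNA methyltransferase, at 505 ± 7.54 and 95.04 ± 0.61 CPM in DMSO and PluriSIn#2 (-2.41), and the ribonucleotide reductase subunits Rrm2 at 515 ± 7.02 and 28.1 ± 0.49 CPM (-4.20) and Rrm1 at 427 ± 10.7 and 48.6 ± 1.19 CPM (-3.14). The steepest falls were those of the chromatin assembly gene Chaf1b (-5.87) and the origin licensing gene Cdc6 (-5.74). The mismatch repair gene Msh6 fell the least, from 145 ± 4.66 to 111 ± 1.44 CPM (-0.38), and was picked out after its value was seen.

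All 40 G2/M targets of FoxM1 and B-Myb were called lower, each at least 2-fold. Among all genes tested 40.9% were called lower and 11.7% at least 2-fold lower. The median log2 fold change of the 40 was -6.08, with a range from -7.86 to -2.64. The most abundant were Top2a, the gene of the enzyme the compound is said to inhibit (log2 fold change -7.18), the cytokinesis gene Racgap1 (337 ± 7.51 to 7.27 ± 1.11 CPM, -5.53) and the spindle motor gene Kif11 (326 ± 5.11 to 2.66 ± 0.13 CPM, -6.93). The steepest falls were those of Bub1, a spindle checkpoint kinase (-7.86, 22 treated reads), and Cdc25c, a phosphatase that activates Cdk1 (-7.64, 12 treated reads). The median of these targets was further from 0 than the log2 fold change of Foxm1 (-4.79) or Mybl2 (-4.74). That of the G1/S targets lay between those of E2f1 (-2.91) and E2f2 (-5.61), and the remaining activator, E2f3, stood at -1.43. Whether targets follow the levels of their factors was not tested.

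**Figure D4:**
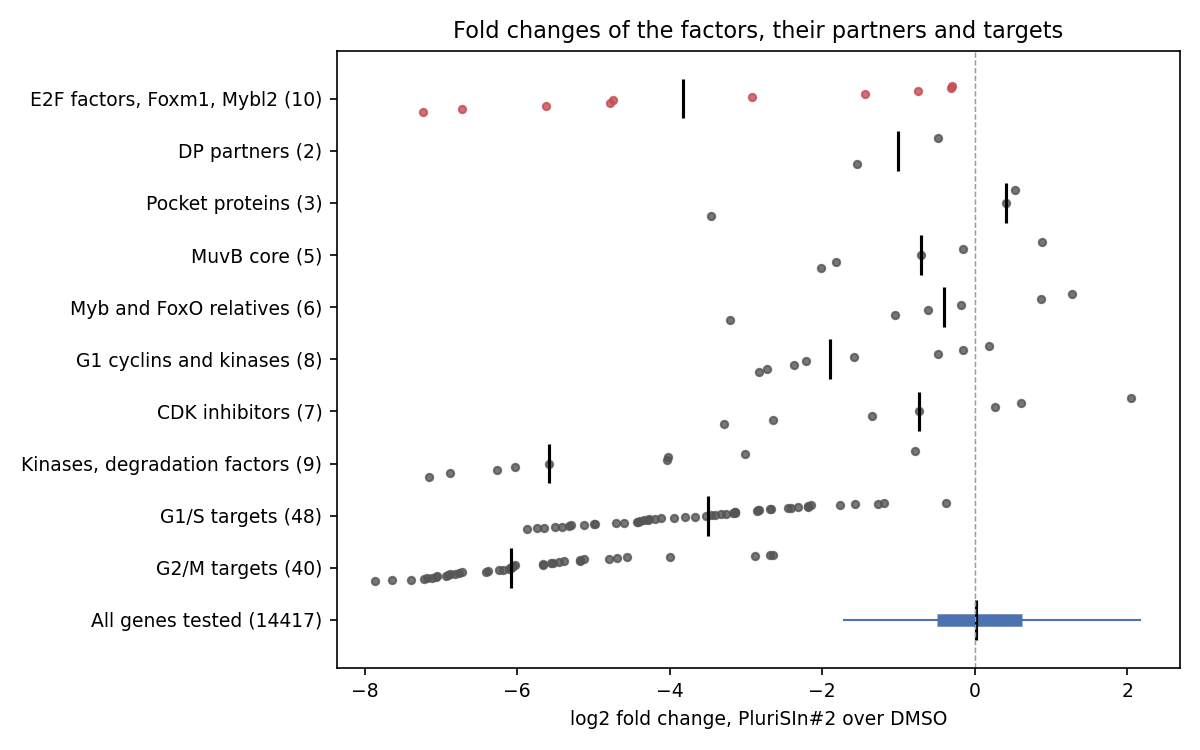
Log2 fold change (PluriSIn#2 over DMSO) of each gene in the lists described here, with the number of genes tested in parentheses. Black lines are medians. For all genes tested the thick blue bar holds the middle 50% and the thin line runs from the 5th to the 95th percentile (-1.73 to 2.19). The G1/S and G2/M targets all lie to the left of 0, while pocket proteins, MuvB genes and CDK inhibitors lie on either side.

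The genes whose levels ran most like those of E2f1 and Foxm1 were sought among 11403 other genes whose mean reached 5 CPM, by the distance between log2 CPM values of the 6 libraries, each centred on its own mean. Nearest to E2f1 were Bora, an activator of mitotic kinases that is also in the G2/M list (distance 0.14), Stmn1, which destabilises microtubules (0.14), and Dock10 (0.14). Nearest to Foxm1 were Cdca5, which encodes the cohesin regulator sororin (0.15), the lamin gene Lmnb1 (0.18) and Anln, a cytokinesis scaffold (0.21). With 2 groups of libraries, such a distance mostly measures how close the fold changes are (-2.88, -2.94 and -2.89 for the genes near E2f1, and -4.83, -4.67 and -4.63 for those near Foxm1).

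The authors' deposited table gives log2 fold changes of their own comparison for all 10 genes. They lie within 0.028 of the edgeR values, from -0.30 for E2f4 to -7.25 for E2f8 in the authors' deposited table, and their adjusted p-values there are at most 2.47e-06.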

How the data were processed

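RNA was measured by sequencing in 6 libraries, 3 per group, grouped by their titles. The tools STAR, HTSeq and DESeq and the build mm10 are named per the submitters' processing notes. Their versions, the annotation and the strand setting are unknown here. The deposited count table holds whole-number read counts per gene symbol, not normalized. The deposited FPKM table holds FPKM per library, computed by the authors, with their log2 fold changes and their p-values. Its 25 entries whose names read as dates were dropped.

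The analysis used edgeR 4.0.16 under R 4.3.3: filterByExpr, TMM factors (0.975 to 1.03), and a two-sided quasi-likelihood F test that compared the groups over the 6 libraries with no covariate. Means are ± SD. The SE of a log2 fold change was derived from the F statistic. The count of 0.5 was added before within-library ratios, and 0.1 CPM before log2 distances. Alternatives were library totals, DESeq2 size factors, DESeq2 1.42.0, 2 other filters, a replicate block, replicate 1 as the only treated library, and each library left out. The script was tested on simulated data. Replicate pairs differed beyond counting noise (chi-square per degree of freedom of at least 1.57).

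The 10 genes and the 14 lists were chosen with earlier results of these data known. The rule named the 10 genes and all genes of the short lists. Of each target list it named the 3 most abundant and the 2 steepest falls. It added the most abundant marker of each cell type, and the 3 genes nearest to E2f1 and to Foxm1. Positions are from GENCODE M21, and promoter sequences from RefSeq.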

Additional observations from a re-analysis of the deposited data

How the results depend on the processing

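Under all 13 alternatives the 10 genes were called lower, as were the 48 G1/S and the 40 G2/M targets, and the number of genes called in all ran from 10943 to 12507. For replicate 1 as the only treated library (10943), the spread comes from the DMSO libraries alone, and the lone library is assumed to vary like them. The largest adjusted p of any of the 10 genes under any alternative was 1.59e-05, for E2f4 with library totals alone. With that scaling E2f4 stood at -0.23 and E2f6 at -0.24 on the log2 scale. Over the alternatives E2f2 ran from -6.37 to -5.35, E2f7 from -7.43 to -6.36 and E2f8 from -7.76 to -7.03, and their treated levels rest on 61, 25 and 26 reads, which limits their precision. Same-numbered libraries did not deviate together (correlations of 0.0047, 0.020 and -0.0043), so the numbers were not taken to pair them. With a replicate block 11851 genes were called and E2f1 was at -2.91.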
